A study of Mus with 2 samples.

Results

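The BCL2 family decides whether a cell keeps its mitochondria intact or dies by apoptosis, and the RNA of 10 of its genes was examined in sorted mouse hematopoietic stem cells (HSCs) with and without Id2, an inhibitor of DNA binding. The members were taken by gene symbol from the 27998 genes of the count matrices, and all 10 were present. They comprise 3 survival genes (Bcl2, Bcl2l1, Mcl1), 2 effectors (Bax, Bak1) and 5 BH3-only genes (Bcl2l11, Bid, Bbc3, Bad, Pmaip1). The groups were Mx1-Cre Id2+/+ and Mx1-Cre Id2Δ/Δ mice aged 8 to 12 weeks, 5 mice pooled per genotype and 1 library each. Mx1-Cre, carried by both groups, is a recombinase that pIpC switches on in blood-forming and other cells, and the HSCs were purified 2 weeks after pIpC. From each pool 1000 cells in the LSK FLT3-CD150+CD48- gate, which selects lineage-negative Sca-1+ c-Kit+ cells on 3 further surface proteins, were sorted for capture on the 10x Genomics Chromium. The protocol text of the Id2Δ/Δ sample names, in a single clause, bones of Id2+/+ mice, whereas the sample's title and its genotype entry give the deletion and were followed here.

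BAX and BAK form pores in the outer mitochondrial membrane through which cytochrome c escapes to activate caspases. The survival proteins BCL2, BCL-XL (from Bcl2l1) and MCL1 bind and hold these effectors and the BH3-only proteins, which sense stress and either free or activate the effectors. MCL1 is short-lived, so its level follows its RNA and its degradation closely, and mouse HSCs are lost when the gene is deleted. The family is controlled to a large extent at the protein level, which these RNA data do not measure.

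With 1 library per genotype differences have no replicate check, the genotypes were not compared by a test, and every interval below is at 95% and covers counting error alone. The libraries held 8612217 (Id2+/+) and 17140713 (Id2Δ/Δ) unique molecular identifiers (UMIs), each standing for 1 captured RNA molecule. After other cell types had been removed, 262 Id2+/+ and 416 Id2Δ/Δ cells were retained, with medians of 7081 and 9663 UMIs. The 12 HSC markers were all detected in both libraries, at summed levels of 1972 and 1667 UMIs per 1000000 UMIs (counts per 1000000, CPM). In the same cells neutrophil markers summed to 1079 and 641 CPM and erythroid markers to 2981 and 2540 CPM. Markers of activated HSCs summed to 2711 and 3068 CPM and those of platelet-biased HSCs to 1603 and 2326 CPM. Id2 had 22 UMIs, or 10.3 CPM, in the retained Id2+/+ cells and 0 in the retained Id2Δ/Δ cells, and over all barcodes it had 99 and 4 UMIs, which runs the way the labels say. The floxed segment ends before exon 3, so 3′ tags read there would lie outside it, and the positions of the tags were not examined here. In 5 of the 7 clusters of retained cells, 1 library supplied over 90% of the cells, and 1 called barcode occurred in both libraries. The pools mixed sexes, in proportions that appeared to differ. Xist-positive cells without a Y-linked UMI made up 32.1% of retained Id2+/+ cells and 55.5% of retained Id2Δ/Δ cells. Cells with Y-linked UMIs and no Xist made up 35.5% and 21.6%. The rest were in neither class, and finding either RNA depends on depth.

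Among the 10 members, Mcl1 stood apart between the genotypes in the retained cells, with a level in the Id2Δ/Δ library of 0.512 times that in the Id2+/+ library, while the other survival genes, both effectors and 4 of the 5 BH3-only genes had ratios between 0.847 and 1.16. Pmaip1 had too few UMIs for a ratio. Of the 9 members with at least 20 UMIs over both libraries, 1 was at least 1.5-fold lower in Id2Δ/Δ cells and 0 were at least 1.5-fold higher. Over all 10458 genes with that many UMIs, 13.5% were at least 1.5-fold lower and 3.30% at least 1.5-fold higher, so 1 lower member in 9 is close to the background. The median log2 ratio of the members was -0.06, beside -0.08 for all genes.

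**Figure D1:**
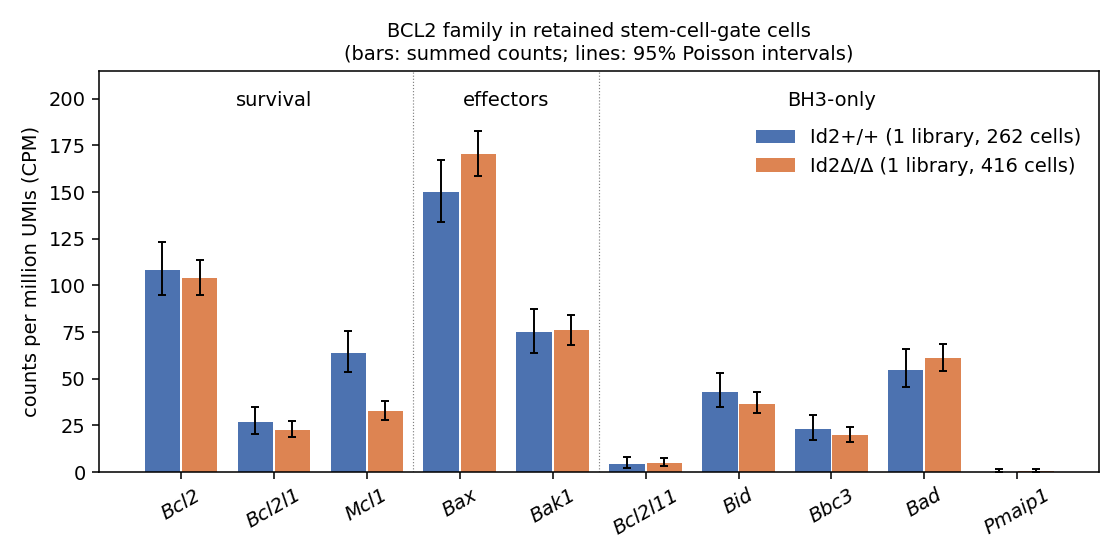
Level of each BCL2 family member in the retained cells, in CPM of the summed counts, with blue bars for the Id2+/+ library (262 cells), orange bars for the Id2Δ/Δ library (416 cells) and lines for 95% Poisson intervals. The intervals of the genotypes are apart for Mcl1 (63.7 against 32.7 CPM) and overlap for every other member.

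Bcl2, the founding survival gene, lies on chromosome 1 (chr1:106538176-106714290, mm10) and was nearly level between the libraries. The retained Id2+/+ cells held 231 Bcl2 UMIs, or 108 CPM (94.8 to 123), spread over 123 of 262 cells with at most 8 in a cell. The retained Id2Δ/Δ cells held 488, or 104 CPM (95.1 to 114), in 256 of 416 cells with at most 9 in a cell. The ratio of Id2Δ/Δ to Id2+/+ was 0.962 (0.821 to 1.13), so Bcl2 did not differ beyond counting error.

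Bcl2l1, which encodes BCL-XL, lies at chr2:152758732-152833803. It stood at 26.7 CPM (20.2 to 34.6, 57 UMIs) in Id2+/+ cells and at 22.6 CPM (18.5 to 27.4, 106 UMIs) in Id2Δ/Δ cells. The ratio of 0.847 (0.608 to 1.19) left a lower or a slightly higher level possible at this depth. Its gene span overlaps that of Cox4i2.

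Mcl1 lies at chr3:95656944-95663179, overlapping no other gene of the annotation. It had 136 UMIs in the retained Id2+/+ cells, or 63.7 CPM (53.5 to 75.4), and 153 in the retained Id2Δ/Δ cells, or 32.7 CPM (27.7 to 38.3). The UMI counts were nearly equal although the retained Id2Δ/Δ cells held 4685729 UMIs in all and the Id2+/+ cells 2133449, and the 2 intervals did not overlap. The ratio was 0.512 (0.404 to 0.650). No single cell set these levels, since the cell with most Mcl1 UMIs held 2.94% of them in Id2+/+ cells and 1.96% in Id2Δ/Δ cells.

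The effector Bax (chr7:45461695-45466903) stood at 150.0 CPM (134 to 167, 320 UMIs) in Id2+/+ cells and at 170.3 CPM (159 to 183, 798 UMIs) in Id2Δ/Δ cells. Its ratio was 1.14 (0.996 to 1.30), an interval that just includes 1. Bak1, the other effector (chr17:27019812-27028627), was at 75.0 CPM (63.8 to 87.6, 160 UMIs) and 76.0 CPM (68.3 to 84.3, 356 UMIs). Its ratio of 1.01 (0.838 to 1.23) was the closest to 1 among the 9 members compared.

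The 4 BH3-only genes with enough UMIs gave ratios on both sides of 1, and the interval of each included 1. Bad (chr19:6941861-6951905), whose protein is switched by growth factor kinases, went from 54.8 CPM (117 UMIs) to 61.0 CPM (286 UMIs), a ratio of 1.11 (0.895 to 1.39). Bid (chr6:120893119-120917062), which links death receptors to mitochondria once caspase-8 cuts its protein, went from 43.1 CPM (92 UMIs) to 36.7 CPM (172 UMIs), a ratio of 0.851 (0.657 to 1.11). Bbc3 (chr7:16308398-16318334), the p53 target that encodes PUMA, went from 23.0 CPM (49 UMIs) to 19.6 CPM (92 UMIs), a ratio of 0.855 (0.598 to 1.24).

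The 2 remaining BH3-only genes were scarce. Bcl2l11 (chr2:128126038-128162547), which encodes BIM, a sensor of growth factor withdrawal, had 9 UMIs in 9 Id2+/+ cells (4.22 CPM) and 23 UMIs in 21 Id2Δ/Δ cells (4.91 CPM). Its ratio of 1.16 had an interval from 0.519 to 2.86, so a 2-fold difference was not detectable at this depth. Pmaip1, which encodes NOXA, the BH3-only protein that pairs with MCL1, had 0 UMIs in 262 retained Id2+/+ cells, and a limit of 3 counts then allows up to 1.41 CPM and up to 1.15% of cells with a UMI. It had 3 UMIs in 3 of 416 Id2Δ/Δ cells, or 0.640 CPM (0.132 to 1.87), which is below that limit. Levels are UMIs counted near the 3′ end, not divided by length, and are read for 1 gene at a time across samples.

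Depth differed between the libraries, so the share of cells with a UMI was compared after each retained cell had been thinned at random to 5800 UMIs, which left out 66 of 262 Id2+/+ cells and 0 of 416 Id2Δ/Δ cells. Mcl1 was then found in 32.7% (26.1 to 39.7) of Id2+/+ cells and 17.3% (13.8 to 21.3) of Id2Δ/Δ cells, compared with 39.3% and 28.8% before thinning. Over 20 random draws the Id2Δ/Δ share was lower by 11.3 to 22.6 percentage points. Bcl2l1, Bid and Bbc3 were also lower in each of the 20 draws, where the Id2Δ/Δ share minus the Id2+/+ share ranged from -7.01 to -1.52 points for Bcl2l1, from -6.82 to -0.22 for Bid and from -5.96 to -0.31 for Bbc3. The draws thin the same cells and are not replicates. In the draw given, only 6.12% of thinned Id2+/+ and 1.44% of thinned Id2Δ/Δ cells held at least 2 Mcl1 UMIs. At counts this sparse the share of cells with a UMI follows the level, so it restates the lower CPM. Whether fewer cells carried Mcl1 RNA or each cell carried less was not tested.

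Bcl2 was found in 43.4% (36.3 to 50.6) and 43.5% (38.7 to 48.4) of thinned cells, against 46.9% and 61.5% unthinned, so its apparent gain in the Id2Δ/Δ library was not seen after thinning. Thinning also changed the cells compared, since it left out shallow Id2+/+ cells only. Bcl2 stood at 116 CPM in the thinned Id2+/+ cells and at 108 CPM in all retained ones. Bax was found in 59.2% and 59.9% of thinned cells, Bak1 in 35.7% and 33.2%, and Bad in 29.6% and 28.6%. Bid was found in 23.5% and 20.7%. Bbc3 was found in 12.2% and 11.8%, the former being the lowest of its 20 draws, which ran from 12.2% to 16.8% in Id2+/+ and from 9.86% to 13.5% in Id2Δ/Δ cells. Bcl2l1 was found in 15.3% (10.6 to 21.1) and 10.8% (8.00 to 14.2). Bcl2l11 was found in 2.04% and 3.37% and Pmaip1 in 0% and 0.240%, and for each of these members the counting intervals of the genotypes overlapped in the draw given.

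Genes of the immediate early and heat-shock response, which cell dissociation is known to induce, were as a set lower in the Id2Δ/Δ library, as Mcl1 was. Of 18 genes in a stress list 15 had enough UMIs, and 13 of these were at least 1.5-fold lower in the Id2Δ/Δ cells, with a median log2 ratio of -1.52 and a summed level of 1891 CPM in Id2+/+ and 739 CPM in Id2Δ/Δ cells. Fos itself went from 211 to 35.2 CPM, and 55.7% of Id2+/+ and 22.1% of Id2Δ/Δ cells had a Fos UMI. Mcl1 was lower in Id2Δ/Δ cells on either side of that split. Among cells with a Fos UMI Mcl1 stood at 70.7 CPM (56.4 to 87.5) in Id2+/+ and 21.6 CPM (13.4 to 33.0) in Id2Δ/Δ cells. Among cells without one it stood at 55.0 CPM (41.1 to 72.1) and 35.6 CPM (29.7 to 42.2), which gave a ratio of 0.646 (0.465 to 0.909). Cells with a Fos UMI thus had the higher Mcl1 in the Id2+/+ and the lower in the Id2Δ/Δ library, with overlapping intervals in each. A cell without a Fos UMI can still hold stress RNA, and the part of stress in the Mcl1 difference was not tested.

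The Mcl1 ratio was also taken within the cells assigned to each sex by Xist and Y-linked UMIs. Among Xist-positive cells without a Y-linked UMI, Mcl1 was at 73.6 CPM (58 UMIs in 84 cells) in Id2+/+ and 32.5 CPM (86 UMIs in 231 cells) in Id2Δ/Δ cells, a ratio of 0.441 (0.313 to 0.627). In cells with Y-linked UMIs and no Xist it was at 48.5 CPM (34 UMIs in 93 cells) and 33.2 CPM (33 UMIs in 90 cells), a ratio of 0.686 (0.412 to 1.14) that no longer reached 1.5-fold. The difference between the sexes was itself not tested, and the 2 intervals overlapped.

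**Figure D2:**
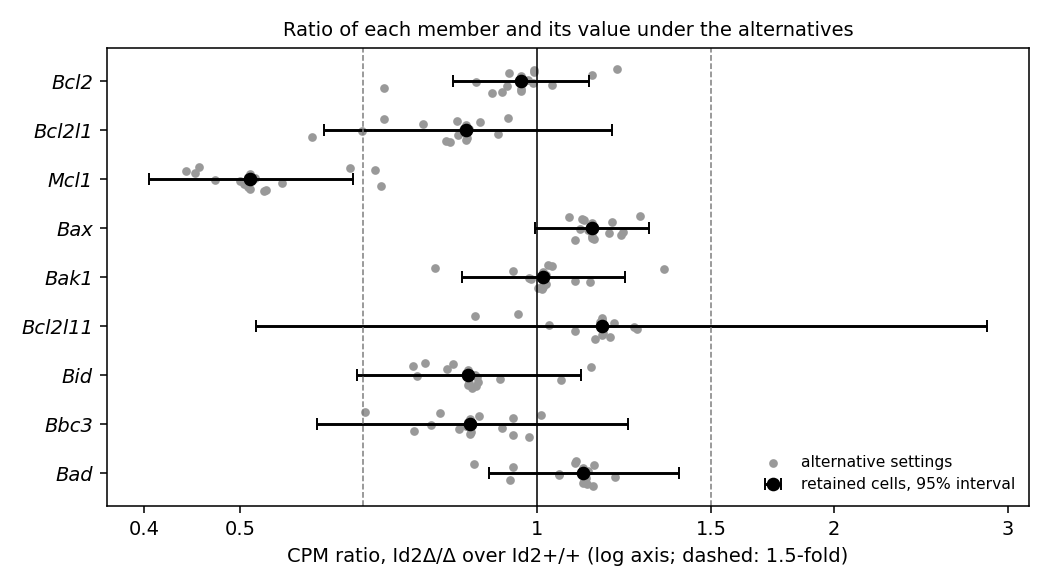
Ratio of the CPM in Id2Δ/Δ over Id2+/+ cells for the 9 members with enough UMIs, on a log axis, with black points and lines for the retained cells and their 95% interval and grey points for the alternative settings. Mcl1 (0.441 to 0.694) and Bcl2l1 were below 1 and Bax above 1 under all 15 alternatives that changed a value, while the other 6 members plotted lay on both sides of 1.

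Among the retained clusters with at least 10 cells of a library, Mcl1 was highest in the Id2+/+ HSC-like cluster and similar in all 5 groups of Id2Δ/Δ cells. That Id2+/+ cluster, led by Meg3, Fos, Klf2 and Dusp1 (176 cells), had Mcl1 at 76.9 CPM (61.8 to 94.5). The Id2Δ/Δ HSC-like cluster, led by Iigp1 and Cd74 (183 cells), had it at 35.2 CPM (26.4 to 46.1). Over all HSC-like cells of each library the Mcl1 ratio was 0.450 (0.315 to 0.636). The summed stress list was at 2366 and 1005 CPM in the same clusters, lower where Mcl1 was lower, and its part in the result was not tested. An Id2+/+ cluster of 67 cells led by Ccl5 and early lymphoid genes had Mcl1 at 49.4 CPM (35.0 to 67.8) with the stress list at 1250 CPM.

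The other Id2Δ/Δ clusters held Mcl1 between 28.7 and 34.8 CPM, whether they were led by replication genes (Ung, Mcm5), mitotic genes (Ccnb2, Cenpa), megakaryocyte genes (Pf4, Gp1bb) or both of the last (Aurkb, Pf4). Across these clusters the stress list ranged from 282 to 827 CPM. In the Id2+/+ library the 10 cells in the mitotic cluster had 0 Mcl1 UMIs, which allows up to 27.5 CPM, with the stress list at 1521 CPM.

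Bcl2 varied among clusters more than between genotypes. It was lowest in the Id2+/+ HSC-like cluster at 74.3 CPM (59.5 to 91.7), in the Id2Δ/Δ replicating cluster at 83.0 CPM (67.9 to 100.4) and in the Id2Δ/Δ HSC-like cluster at 89.1 CPM (74.6 to 106), and these 3 intervals overlapped. Of the groups with at least 10 cells of a library, it was highest in the Id2Δ/Δ cluster led by Pf4 and Gp1bb, at 151 CPM (127 to 178, 59 cells). An Id2+/+ cluster of 67 cells had it at 147 CPM (121 to 177). The 10 Id2+/+ cells of the mitotic cluster also had it at 147 CPM, from 16 UMIs. The cluster of 67 cells was given no name. Its 10 leading genes held the B cell marker Ebf1 and no marker of any HSC class, which the naming rule excludes. They also held the early lymphoid genes Vpreb1, Vpreb3, Igll1 and Dntt. The cluster's platelet-biased HSC markers nevertheless summed to 3021 CPM, against 449 CPM in the HSC-like cluster of that library. Its B cell markers summed to 81.9 CPM against 57.2 CPM, and Pax5 was at 0 in the retained cells of both libraries. When this cluster was left out, the Bcl2 ratio went from 0.962 to 1.20 (0.983 to 1.49), that of Bax to 1.27 (1.08 to 1.499) and that of Bbc3 to 0.670 (0.457 to 0.997), while Mcl1 was at 0.455 (0.350 to 0.592). The cluster held 67 Id2+/+ and 0 Id2Δ/Δ cells, so this removal was one-sided. The Id2Δ/Δ clusters with Pf4 among their leading genes stayed in.

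Bbc3 followed the HSC-like clusters in both genotypes. It was at 31.6 CPM (22.3 to 43.6) in the Id2+/+ and 29.9 CPM (21.8 to 40.0) in the Id2Δ/Δ HSC-like cluster, and at 11.7 to 17.6 CPM in the other clusters with at least 27 cells. The sum over all retained cells thus mixed cells with a higher and a lower Bbc3 level. As Bcl2, Mcl1 and Bbc3 were among the variable genes used for clustering, these levels are descriptions.

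**Figure D3:**
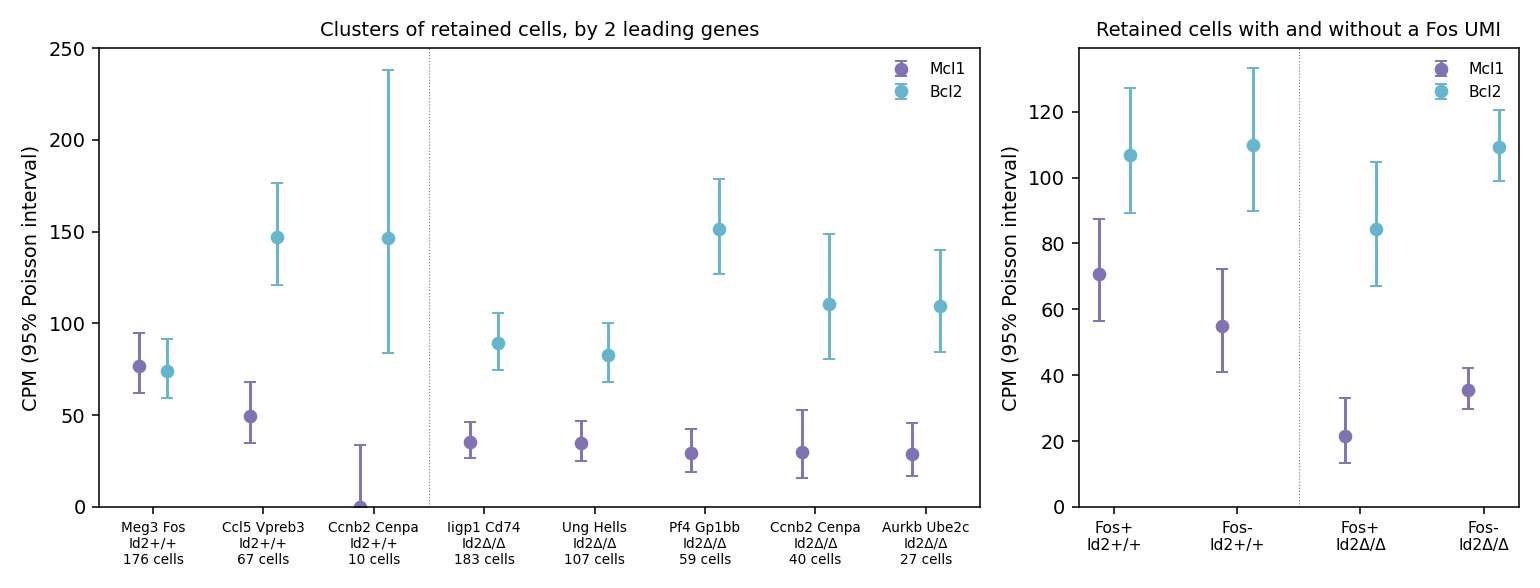
Level of Mcl1 (purple) and Bcl2 (light blue) in CPM with 95% Poisson intervals, in the clusters of retained cells with at least 10 cells of a library (left, named by 2 leading genes) and in retained cells with and without a Fos UMI (right). The Id2Δ/Δ clusters all had Mcl1 at 28.7 to 35.2 CPM, below the 76.9 CPM of the Id2+/+ HSC-like cluster.

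The other cell kinds caught in the sort carried RNA of the family in other proportions. Erythroid-like cells, which express Klf1, Car1 and Ermap, numbered 35 in the Id2+/+ and 155 in the Id2Δ/Δ library, with medians of 37549 and 40045 UMIs. Bcl2 was nearly missing from them, with 5 UMIs (3.79 CPM) and 7 UMIs (1.11 CPM), so the retained cells stood 28.6-fold (12.1 to 88.8) and 93.8-fold (45.2 to 234) higher. In thinned cells a Bcl2 UMI was found in 2.94% of 34 and 0% of 155 erythroid-like cells, the latter allowing up to 1.94%. Empty droplets, which hold free RNA, had Bcl2 at 30.4 and 14.6 CPM, and its part in those few UMIs was not tested.

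The other survival genes differed in this respect. Mcl1 stood in erythroid-like cells at 43.2 CPM (32.7 to 56.0, 57 UMIs) in the Id2+/+ and 39.0 CPM (34.3 to 44.2, 246 UMIs) in the Id2Δ/Δ library. These were 0.678 (0.489 to 0.930) and 1.20 (0.973 to 1.47) times the retained level, below it in the Id2+/+ library and with an interval that included 1 in the Id2Δ/Δ library. Empty droplets had Mcl1 at 52.2 and 29.1 CPM, and the part of free RNA in the erythroid-like values was not tested. The erythroid-like cells of the genotypes came from different clusters, with 32 of the 35 Id2+/+ cells in one and all 155 Id2Δ/Δ cells in the others, so no ratio between genotypes was read from them. Bcl2l1 was at 9.86 and 6.50 CPM, which put it 2.71-fold (1.47 to 5.40) and 3.48-fold (2.40 to 5.12) below the retained cells.

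Among the death genes, Bcl2l11 was the one most raised in erythroid-like cells. It stood at 20.5 CPM (13.5 to 29.8) in the Id2+/+ and 15.5 CPM (12.6 to 18.9) in the Id2Δ/Δ library, 4.85 (2.22 to 11.7) and 3.17 (1.995 to 5.23) times the retained cells' level. Bid was 1.53 (1.13 to 2.07) and 1.51 (1.253 to 1.82) times the retained level, Bax 1.41 and 1.37 times, and Bak1 1.29 and 1.26 times. Bad stood at 1.05 (0.777 to 1.41) and 0.821 (0.698 to 0.967) times the retained level. Empty droplets had Bax at 230 and 244 CPM, Bak1 at 154 and 103 CPM and Bid at 130 and 70.2 CPM, each above its erythroid-like level in the same library, and Bcl2l11 at 8.03 and 7.54 CPM, below it. The part of free RNA in these values was not tested. Bbc3 went the other way, at 3.03 and 4.28 CPM, or 7.57-fold (2.78 to 28.9) and 4.58-fold (2.96 to 7.32) below.

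Of the 9 members with enough UMIs, Bcl2l11 and Bid were at least 1.5-fold higher and Bcl2, Bcl2l1 and Bbc3 at least 1.5-fold lower in the erythroid-like than in the retained cells of each library. Over all genes 18.3% were at least 1.5-fold higher and 39.0% lower in the Id2+/+ library, and 17.3% and 40.7% in the Id2Δ/Δ library. The counts of 2 and 3 in 9 are near these shares, since erythroid-like cells differ from the retained cells in a large part of the transcriptome.

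Neutrophil-like cells, 27 and 40 in number, had low Bcl2 and Mcl1 and relatively high Bid. Bcl2 was at 17.3 and 15.1 CPM, or 6.25-fold (3.12 to 14.7) and 6.88-fold (3.81 to 13.9) below the retained cells. Mcl1 had only 4 and 8 UMIs, at 8.66 CPM (2.36 to 22.2) and 11.01 CPM (4.75 to 21.7), or 7.36-fold (2.81 to 27.4) and 2.97-fold (1.47 to 6.99) below the retained cells. The part of free RNA in these few UMIs was not tested.

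Bid was at 95.3 CPM (69.2 to 128) and 74.3 CPM (55.8 to 97.0) in neutrophil-like cells, which was 2.21 (1.51 to 3.20) and 2.03 (1.46 to 2.76) times the retained level. The 130 and 70.2 CPM of Bid in empty droplets lay above that interval in the Id2+/+ and within it in the Id2Δ/Δ library, and the part of free RNA was not tested. Bad was at 93.1 CPM in the Id2+/+ and 74.3 CPM in the Id2Δ/Δ library, 1.70 (1.17 to 2.43) and 1.22 (0.893 to 1.63) times the retained level. Bbc3 had 1 UMI in each library. These cells came from different clusters in the genotypes, one led by Elane and Mpo and held mostly by the Id2+/+ library, and one led by Ngp and Camp and held mostly by the Id2Δ/Δ library, so no ratio between genotypes was read from them.

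Of 8 members with enough UMIs in the Id2+/+ library, 2 (Bid, Bad) were at least 1.5-fold higher and 3 (Bcl2, Mcl1, Bbc3) lower in neutrophil-like than in retained cells, where 11.3% and 43.9% of all genes were. Of 9 in the Id2Δ/Δ library, 1 (Bid) was higher and 4 (Bcl2, Bcl2l1, Mcl1, Bbc3) were lower, where 10.5% and 46.8% of all genes were. Pmaip1 had 1 and 4 UMIs in these cells and 0 in the erythroid-like cells of both libraries.

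**Figure D4:**
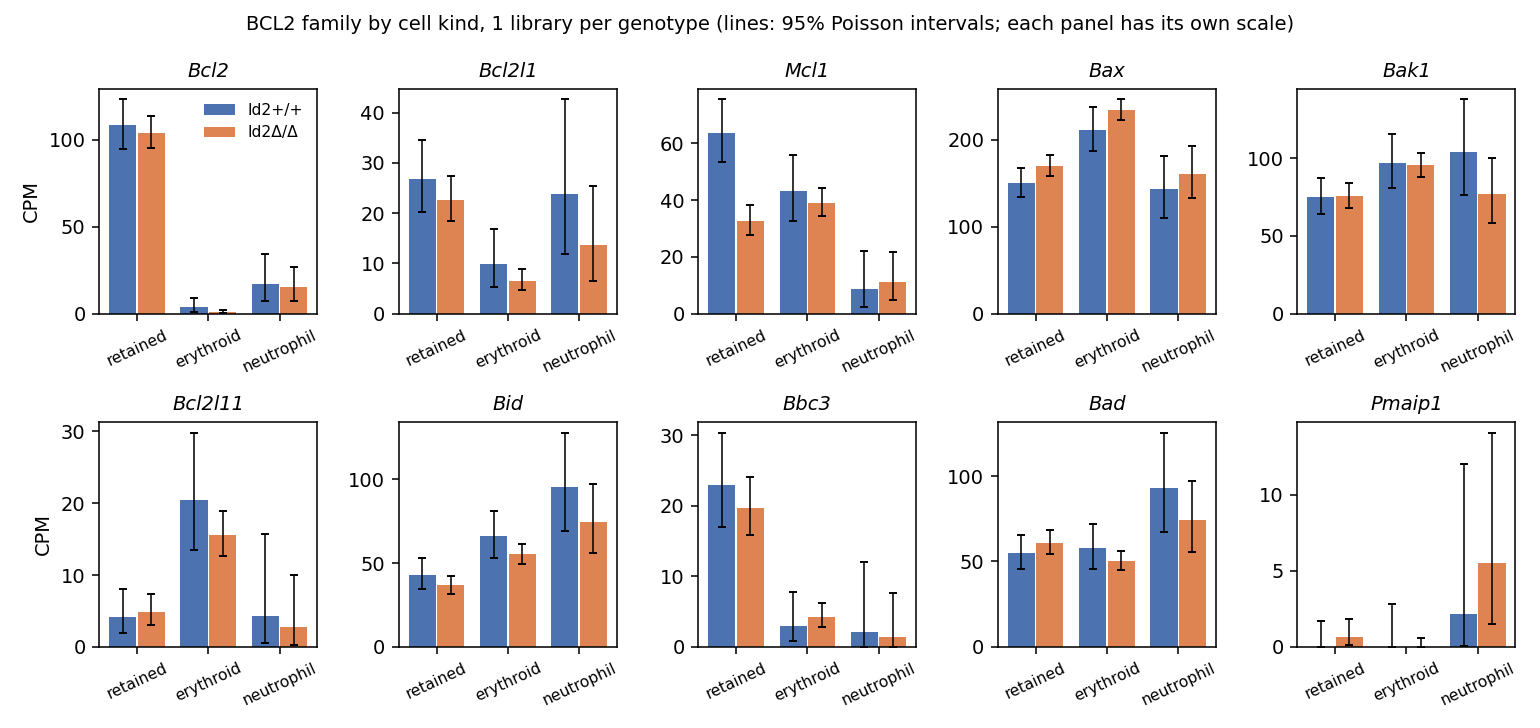
Level of each member in CPM with 95% Poisson intervals, in the retained, erythroid-like and neutrophil-like cells of each library, with blue bars for Id2+/+ and orange bars for Id2Δ/Δ and a separate axis from 0 for each gene. Bcl2 and Bbc3 are high in the retained cells and low in the other kinds, Bcl2l11 is highest in the erythroid-like cells and Bid in the neutrophil-like cells.

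Haemoglobin-rich cells, 9 in the Id2+/+ and 14 in the Id2Δ/Δ library, put 87.1% and 86.2% of their UMIs into haemoglobin genes, which dilutes every other gene. They held 14 and 12 UMIs of the whole family, of which Bcl2l1 made up 11 (in 4 cells) and 4 (in 3 cells). With the haemoglobin genes left out of the total, Bcl2l1 stood at 1052 CPM (525 to 1882) and 242 CPM (65.9 to 619). In the Id2+/+ library 1 cell held 6 of the 11 UMIs, and without it the level was 535 CPM (174 to 1248). Bcl2 was at 0 in all 23 of these cells, which on that scale allows up to 287 and 181 CPM (3 counts per library), above the 108 and 104 CPM of the retained cells, so a lower level was not detectable at this depth. BCL-XL is known as the survival protein of late erythroid cells, and Bcl2l1 made up 11 of the 12 and 4 of the 4 survival gene UMIs here.

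The balance of the roles was taken as the share of each in the UMIs of the 10 members, a measure that does not depend on library size. It sums UMIs over genes captured with unequal efficiency, so a share is compared between libraries and kinds and does not rank the genes within one. In the retained cells the survival genes made up 36.2% (33.5 to 39.0) of 1171 UMIs in the Id2+/+ and 30.2% (28.4 to 32.0) of 2477 UMIs in the Id2Δ/Δ library. The effectors made up 41.0% (38.2 to 43.9) and 46.6% (44.6 to 48.6), and the BH3-only genes 22.8% and 23.3%. Within the survival genes Mcl1 made up 32.1% (27.7 to 36.8) and 20.5% (17.6 to 23.6) and Bcl2 54.5% (49.6 to 59.3) and 65.3% (61.8 to 68.7). The survival share in cells with Y-linked UMIs and no Xist was 34.1% and 33.1%. In Xist-positive cells lacking Y-linked UMIs it was 37.6% and 28.0%, a wider gap.

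The kinds differed more than the genotypes. In erythroid-like cells the survival share was 11.1% (8.84 to 13.7) and 9.30% (8.31 to 10.4), and Mcl1 made up 76.0% and 83.7% of it. The effectors made up 60.1% and 65.7% there. In neutrophil-like cells the survival share was 10.1% (6.50 to 14.8) and 9.15% (6.21 to 12.9), and the BH3-only share was 39.9% and 36.3%, above that of the retained cells. The sum of the 10 members was at 549 and 529 CPM in the retained, 512 and 502 CPM in the erythroid-like and 494 and 436 CPM in the neutrophil-like cells.

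**Figure D5:**
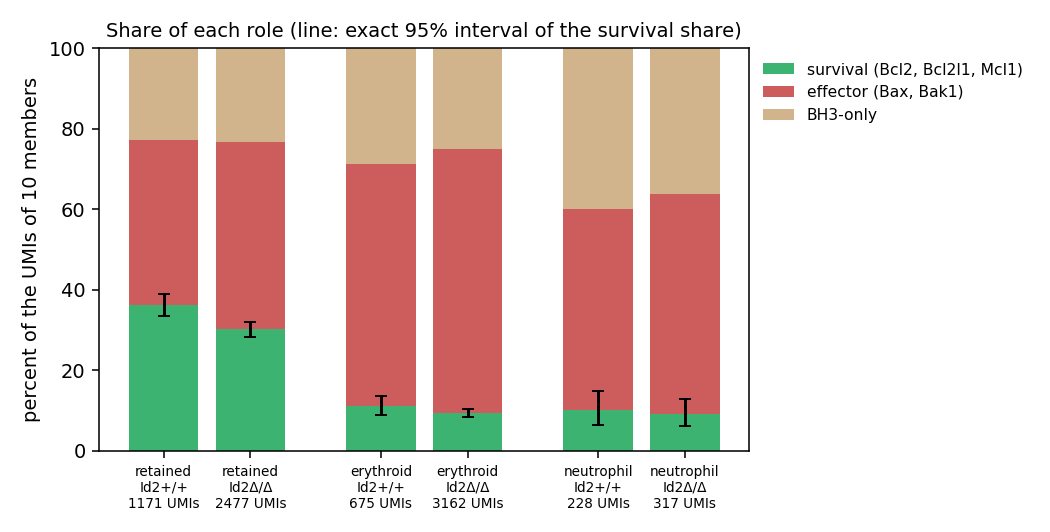
Percent of the UMIs of the 10 members that came from survival (green), effector (red) and BH3-only (tan) genes in the retained, erythroid-like and neutrophil-like cells of each library, stacked from 0, with a line for the exact 95% interval of the survival share. The survival share was 36.2% and 30.2% in the retained cells and between 9.15% and 11.1% in the other kinds.

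Free RNA was measured in barcodes with 1 to 100 UMIs, which held 46.3% and 22.4% of all UMIs, and was estimated to make up 10.5% and 5.41% of the UMIs of the retained cells. Bid, Bak1 and Bax stood higher in these droplets than in the retained cells, at 130, 154 and 230 CPM in the Id2+/+ library and at 70.2, 103 and 244 CPM in the Id2Δ/Δ library, and Bcl2l11 did so as well, at 8.03 and 7.54 CPM. After this profile had been subtracted the ratio of Bid went from 0.851 to 1.06 (0.781 to 1.44), and that of Bax from 1.14 to 1.18 (1.03 to 1.37). Mcl1 stood at 0.505 (0.394 to 0.646) after subtraction.

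The genes around the family were counted by the same fold in the retained cells. Among 17 further BCL2 relatives, 8 had enough UMIs and 0 passed 1.5-fold in either direction, with a median log2 ratio of -0.01.

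Of 21 genes of the mitochondrial death machinery all were measured, 3 were at least 1.5-fold lower in Id2Δ/Δ cells and 0 higher, with a median log2 ratio of -0.01. Casp9, the initiator caspase of the apoptosome, was at 12.7 and 7.68 CPM (ratio 0.607, 0.358 to 1.04). The caspase inhibitor Xiap was at 37.5 and 24.8 CPM (0.660, 0.492 to 0.889), and Birc2, which encodes cIAP1, was at 38.9 and 23.5 CPM (0.603, 0.450 to 0.812). Birc5, which encodes survivin, a mitotic as well as an antiapoptotic protein, was named after its value had been seen and lay just under the fold at 85.8 and 128 CPM (1.49, 1.26 to 1.77). Empty droplets had Birc5 at 458 and 602 CPM, above both levels, and the part of free RNA in its ratio was not tested.

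In the death receptor arm 9 of 11 genes were measured and 1, Tnfrsf1b, which encodes a receptor of TNF, was lower, at 17.3 and 11.1 CPM (0.640, 0.412 to 1.003), with a median log2 ratio of -0.11 over the 9. Among 17 regulators of BCL2 proteins 16 were measured and 2 were lower, with a median of -0.08. These were Foxo3, a transcription factor that induces Bcl2l11 and Bbc3, at 42.2 and 26.9 CPM (0.637, 0.483 to 0.845), and the co-chaperone Bag3 at 10.3 and 6.40 CPM (0.621, 0.346 to 1.13). In all, 6 of the 54 genes measured in these lists were lower, a share near the 13.5% of all genes.

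Over the 8 profiles made by 4 cell kinds and 2 libraries, Bcl2 was taken as the member of widest range on the scale of log2(CPM + 1). The haemoglobin-rich profiles at 0 UMIs set the lower end of that range, so the choice depends on the constant added and ranks no gene against another. Of 2356 genes averaging 50 CPM or more, the patterns most like that of Bcl2 were those of Capg (Pearson r = 0.989), Ninj1 (0.977), Ptprcap (0.976), Lyl1 (0.968) and Serpina3g (0.958). Capg, for example, was at 172 and 198 CPM in the retained, 26.5 and 21.7 CPM in the erythroid-like and 54.1 and 73.0 CPM in the neutrophil-like cells. The 8 profiles share 2 libraries and the dilution by haemoglobin RNA, so these correlations across profiles are descriptions.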

How the data were processed

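The authors deposited raw UMI counts per gene and barcode, 1 matrix per library with 737280 barcodes, not normalized. Per the submitters' processing notes Cell Ranger 2.2.0 and mm10 were used, and whether counting used strand is not given in the sources used here. Gene spans of Bcl2l1, Bak1, Bcl2l11 and Bad overlap those of other coding genes (Cox4i2, Ggnbp1, Acoxl, Gpr137), so reads could be split between them. Coordinates come from RefSeq on GRCm38.p6, matched for all 10 members. The members and gene lists were chosen with earlier results of these data known.

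Cells were barcodes holding 10% or more of the 99th percentile depth among the top 1000 barcodes, which gave 349 Id2+/+ and 632 Id2Δ/Δ cells (383 and 686 per the labels). Cells under 10% mitochondrial UMIs (333 and 625) were clustered on 2000 variable genes, 20 principal components and 15 neighbours by the Leiden method (leidenalg 0.10.2) at resolution 1, with seed 0. Clusters were set apart when 4 or more erythroid or neutrophil markers exceeded a log2 fold of 1 and were seen in 25% or more of the cells. What remained was clustered a second time, at resolution 0.8, and named from at least 3 markers. A cluster stayed unnamed where another marker list had more genes among its 10 leading genes. Retained depth ranged from 4419 to 21122 and from 6181 to 38740 UMIs per cell. No doublet caller was used for the reported values.

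Counts were summed per library and kind. CPM have exact Poisson intervals, ratios exact conditional intervals and shares exact Clopper-Pearson intervals (scipy 1.17.1), all at 95% and checked on simulated counts. A count of 0 was limited by 3 counts. Median log2 ratios of lists had 0.5 added to each count. Named genes were the 10 members, up to 5 genes per list past 1.5-fold with at least 20 UMIs, and the 5 genes most like the member of widest range. Birc5 falls outside this rule and was named after its value had been seen. TMM factors came from edgeR 4.0.16, run as an alternative only.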

Additional observations from a re-analysis of the deposited data

How the results depend on the processing

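Of 18 alternative settings 3 (no mitochondrial limit, a first clustering at resolution 0.5, clustering without BCL2 family genes) retained the same cells and bear on nothing. Under the other 15, 121 of 131 ratios of members lay within the interval of the reported ratio, and Mcl1 was below 1 in all 15. The number of members at least 1.5-fold lower was 2 in 1 random draw of cells thinned to 5800 UMIs, without 66 shallower Id2+/+ cells, where Bcl2l1 was at 0.665, and 0 among Y-positive cells without Xist, where Mcl1 was at 0.686. The survival share of the family was 25.6% (Id2+/+) and 18.0% (Id2Δ/Δ) with all cell types left in, 39.6% in Id2+/+ cells after subtraction of the empty-droplet profile, and 28.0% and 33.1% in Id2Δ/Δ cells with Xist only and with Y-linked UMIs only. With all cell types left in, the ratios of Bcl2, Bcl2l1 and Mcl1 were 0.700, 0.591 and 0.694, so that Bcl2l1 and not Mcl1 passed 1.5-fold there, with erythroid-like cells at 10.5% of Id2+/+ and 24.8% of Id2Δ/Δ cells. Bak1 was at 1.35 in cells with Xist only and 0.787 in those with Y-linked UMIs only, Bid at 1.14 in the former and Bad at 0.863 in the latter. TMM scaling shifted every log2 ratio by 0.11 and put Bcl2 at 1.04, Bax at 1.22 and Mcl1 at 0.552, and the members' median at 0.05. The median log2 ratio of the members ranged from -0.28 (thinned cells) to 0.08 (empty-droplet profile subtracted). Without the filter on low counts 22.1% of all genes were at least 1.5-fold lower and 4.47% higher. Leaving out the cells marked by Scrublet (1 and 0 of the retained cells), another cell calling or a mitochondrial limit of 5% kept every ratio within its interval. No paired analysis was possible because a single library stood for each genotype. The alternative without the cluster led by lymphoid genes, the Bcl2l1 level without its top cell, and the naming of Birc5 were added once the data had been seen.

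The limits are that 1 library of 5 pooled mice per genotype gives no estimate of the spread between animals, that library, depth, sex mix, stress RNA and genotype cannot be told apart, and that Bcl2l11 has a wide interval and Pmaip1 too few UMIs for a ratio.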
